A study of Mus musculus with 12 samples.

Results

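The genes described here are 9 members of the poly(ADP-ribose) polymerase family, Parp1, Parp2, Parp3, Parp8, Parp9, Parp10, Parp11, Parp12 and Parp14, and Dtx3l, the ubiquitin ligase that pairs with PARP9. They were chosen by symbol, with earlier results of these data known, and all 10 were found among the 45563 symbols used. RNA was sequenced from primary mouse oligodendrocyte precursor cells (OPCs) of the C57BL/6 strain in 12 libraries, 3 in each of 4 groups. WT NS and TNFR2-/- NS libraries came from wild-type and TNFR2 knockout OPCs without stimulation, which the study's methods describe as given vehicle. WT St and TNFR2-/- St libraries came from the same kinds of cells after 3 h with TNF, IFNγ and IL1β at 25 ng/mL each. The labels place the pups at postnatal day 2 to 5 and the methods at day 3 to 5. By those methods the knockout was germline, so that every cell of the animal carried it, and cortical cells were pulled down on beads against PDGFRα and grown for 3 days in PDGF-AA and FGF2. Libraries of a group are named by the number in their labels, which do not say whether numbers mark separate cultures, and the study describes the values in its panels of gene expression as coming from independent experiments. The p-values measure the spread between these samples.

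PARP enzymes take NAD+ and attach its ADP-ribose to proteins, as single units or as chains, and other proteins read or remove this mark. PARP1 and PARP2 are known for their activation at DNA breaks, whereas PARP9, PARP10, PARP11, PARP12 and PARP14 belong to the interferon-stimulated genes of many cell types. IFNγ acts through its receptor and the kinases JAK1 and JAK2 on genes that carry a gamma-activated sequence (GAS), among them Irf1, and the interferon-stimulated response element (ISRE) is bound by IRF proteins.

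Libraries held 26886878 to 30335265 read pairs. Tnfrsf1b, which encodes TNFR2, went against the labels: it had 15, 12 and 24 read pairs in WT NS 2, 3 and 4, against 322, 346 and 213 in TNFR2-/- NS 2, 4 and 5. With cytokines it had 145, 61 and 105 read pairs in WT St 2, 3 and 4, against 282, 356 and 290 in TNFR2-/- St 2, 4 and 5. It was called higher in the libraries labelled TNFR2-/- (log2 fold change 2.35, adjusted p = 0.00134 in NS, and 1.28, adjusted p = 0.016 in St, limma), so each direction between genotypes given here is one between libraries as labelled. Whether these reads fall outside the disrupted part of the gene was not tested. All 6 OPC markers were detected, at 3910 to 4910 read pairs per 1000000 of the library (RPM) in sum in NS and 2730 to 3200 in St libraries. All 6 microglial markers summed to 0.707 to 1.85 RPM in every library. The 5 astrocyte markers were highest in the libraries labelled TNFR2-/-, and among those in the number 5, with 1570 RPM in NS and 1520 in St against 687 to 723 in numbers 2 and 4 and 411 to 541 in WT libraries. The 5 neuronal markers summed to 96.3 to 124 RPM in NS and 429 to 544 in St libraries. Markers of a list did not move alike: of the neuronal markers Tubb3 went from a mean of 51.2 FPKM in WT NS to 428 FPKM in WT St and Snap25 from 17.5 to 8.43 FPKM, and of the OPC markers Olig2 went from 2370 to 1010 FPKM and Sox10 from 214 to 329 FPKM. Their part in the changes with stimulation was not tested.

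Of the members, 3 lie together on chromosome 16 (GRCm38). Dtx3l (ENSMUSG00000049502) runs on the minus strand from 35926511 to 35939151, Parp9 (ENSMUSG00000022906) on the plus strand from 35938470 to 35972605 and Parp14 (ENSMUSG00000034422) on the minus strand from 35832874 to 35871544. Dtx3l and Parp9 start head to head and overlap by 682 bases, 458 of them in exons of both. How reads from the shared start were counted is not given. Of the 100-base sequences, 5.17% of those of Dtx3l transcripts and 5.57% of those of Parp9 were shared. RefSeq promoter windows of GRCm38.p6, from 250 bases before to 50 bases after a start, were at hand for 7 of the 10 members, and not for Parp9, Parp10 and Parp14. They were searched on both strands for TTCNNNGAA (GAS), for GAAA, any 2 bases and GAAA again (the core of an ISRE) and for GGGA, any 4 bases and CC (a pattern like the κB site of NF-κB), which 8.3%, 3.44% and 20.7% of all 32851 promoter windows held. Parp11 alone among the 7 had a GAS or ISRE match, 1 of each, and they overlapped by 3 bases. A further Parp11 window, chr6:127453377-127453676 on the plus strand, held none of the 3 patterns. Which start the cells used was not tested. Below are the Parp11 window with these matches, the Parp12 window as another induced member, the Parp1 window as a member that did not pass the test, and the 126 bases before the annotated Dtx3l exons, which lie within Parp9 on the other strand; capitals mark matches to the 3 patterns.
Parp11, chr6:127446590-127446889, plus strand: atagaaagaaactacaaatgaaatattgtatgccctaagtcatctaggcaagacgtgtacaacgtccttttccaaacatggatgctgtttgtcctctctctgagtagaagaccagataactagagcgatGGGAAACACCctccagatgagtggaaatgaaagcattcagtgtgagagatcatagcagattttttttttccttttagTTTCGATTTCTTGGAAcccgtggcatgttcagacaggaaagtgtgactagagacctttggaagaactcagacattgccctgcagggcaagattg
Parp12, chr6:39118300-39118599, minus strand: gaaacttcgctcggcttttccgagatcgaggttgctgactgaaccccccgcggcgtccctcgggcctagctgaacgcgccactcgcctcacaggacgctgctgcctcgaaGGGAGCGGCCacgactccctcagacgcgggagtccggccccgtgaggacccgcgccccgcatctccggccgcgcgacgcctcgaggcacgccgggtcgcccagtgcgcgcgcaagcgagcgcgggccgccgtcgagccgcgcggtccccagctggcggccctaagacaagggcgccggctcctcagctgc
Parp1, chr1:180568641-180568940, plus strand: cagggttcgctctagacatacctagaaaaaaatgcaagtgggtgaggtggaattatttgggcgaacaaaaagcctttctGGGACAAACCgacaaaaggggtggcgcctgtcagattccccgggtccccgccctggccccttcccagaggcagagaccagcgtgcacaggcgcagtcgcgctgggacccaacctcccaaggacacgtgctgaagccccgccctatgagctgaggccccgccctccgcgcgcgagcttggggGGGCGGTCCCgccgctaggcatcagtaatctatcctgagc
Dtx3l, chr16:35939152-35939277, minus strand: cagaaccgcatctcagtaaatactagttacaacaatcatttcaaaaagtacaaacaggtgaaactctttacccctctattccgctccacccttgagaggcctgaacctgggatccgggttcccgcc
In the Parp11 window shown, the ISRE match began 44 bases and the GAS match 37 bases before the start. A κB-like match stood 121 bases before it. The windows of Parp12 and Parp1 held 1 and 2 κB-like matches and neither of the other patterns, and the window of Dtx3l held none of the 3. A match here is a description of letters, and its use by a factor was not measured.

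Stimulation raised 8 of the 10 members in WT OPCs, where 4.58% of the 18081 genes tested were called higher, and the same 8 in OPCs labelled TNFR2-/-, where 5.41% were. Calls required an adjusted p of 0.05 or less (limma, Benjamini-Hochberg over all genes tested), a 1.5-fold or larger change and 1 FPKM (fragments scaled to gene length and library size) or more on average. No member was called lower, and Parp1 and Parp2 were not called. The members were chosen with earlier results of these data known, so the shares over all genes stand here as a description. The median log2 fold change of the members was 2.36 in WT and 2.22 in TNFR2-/- OPCs, against -0.055 and -0.109 over all genes. In bulk RNA, more cells of a type and more RNA per cell cannot be told apart. For all 8 genes, picked here by their calls, the highest NS library lay below the lowest St library. The share of all genes separated in this way was not counted.

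**Figure D1:**
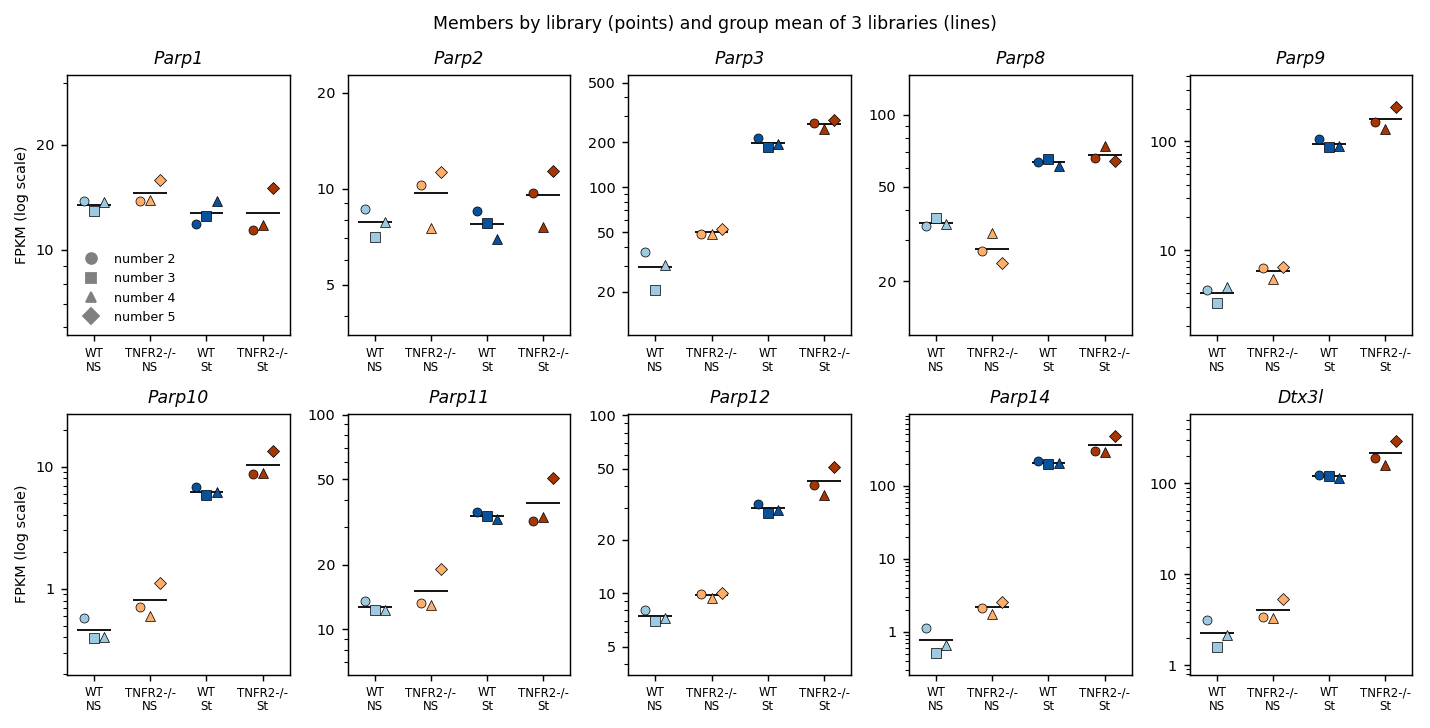
FPKM of each member in each library, on a log axis that differs between panels, by genotype and stimulation. Points are libraries, shaped by the number in their labels, and lines are means of 3. Parp14, Dtx3l and Parp9 show the widest gaps between NS and St libraries, Parp1 and Parp2 show none, and number 5 of the libraries labelled TNFR2-/- is the highest of its group for 9 of 10 members.

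The 3 genes on chromosome 16 moved most. Parp14, a mono-ADP-ribosyltransferase with macrodomains that bind ADP-ribose, first known as a cofactor of STAT6, was at 1.12, 0.519 and 0.657 FPKM in WT NS 2, 3 and 4 and at 217, 197 and 202 FPKM in WT St 2, 3 and 4. In the libraries labelled TNFR2-/- it went from 2.13, 1.76 and 2.57 FPKM in NS 2, 4 and 5 to 295, 285 and 478 FPKM in St 2, 4 and 5. The gene was low in NS libraries, with 17 to 41 read pairs per WT library, and no NS library came near any St library. The log2 fold change was 7.37 ± 0.22 (SE, adjusted p = 5.3e-09) in WT and 7.03 ± 0.22 (adjusted p = 8.73e-09) in TNFR2-/- OPCs. On the log2(FPKM + 0.5) scale these understate the change of so low a gene, and the plain ratios of mean FPKM were 268 and 164.

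Dtx3l encodes a ligase of the Deltex family that ubiquitinates histones and other proteins and works as a complex with PARP9. Its level was 3.11, 1.58 and 2.16 FPKM in WT NS 2, 3 and 4 and 125, 120 and 114 FPKM in WT St 2, 3 and 4. In TNFR2-/- NS 2, 4 and 5 it was 3.42, 3.31 and 5.38 FPKM, and in TNFR2-/- St 2, 4 and 5 it was 190, 161 and 291 FPKM. The 3 WT St libraries lay close together, and number 5 stood above both other TNFR2-/- libraries with and without cytokines. Dtx3l rose by 5.47 ± 0.25 log2 units in WT (adjusted p = 1.3e-07) and by 5.55 ± 0.25 in TNFR2-/- OPCs (adjusted p = 9.83e-08), or 52.5-fold and 53-fold by mean FPKM.

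Parp9, the macrodomain protein of that complex, was at 4.27, 3.28 and 4.54 FPKM in WT NS 2, 3 and 4 and reached 105, 89.5 and 91.3 FPKM in WT St 2, 3 and 4. TNFR2-/- NS 2, 4 and 5 had 6.85, 5.45 and 6.95 FPKM, and TNFR2-/- St 2, 4 and 5 had 150, 129 and 207 FPKM. Every library labelled TNFR2-/- was above every WT library of the same stimulation. The change with cytokines was 4.41 ± 0.17 in WT (adjusted p = 4.57e-08) and 4.53 ± 0.17 log2 units in TNFR2-/- OPCs (adjusted p = 3.02e-08).

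**Figure D2:**
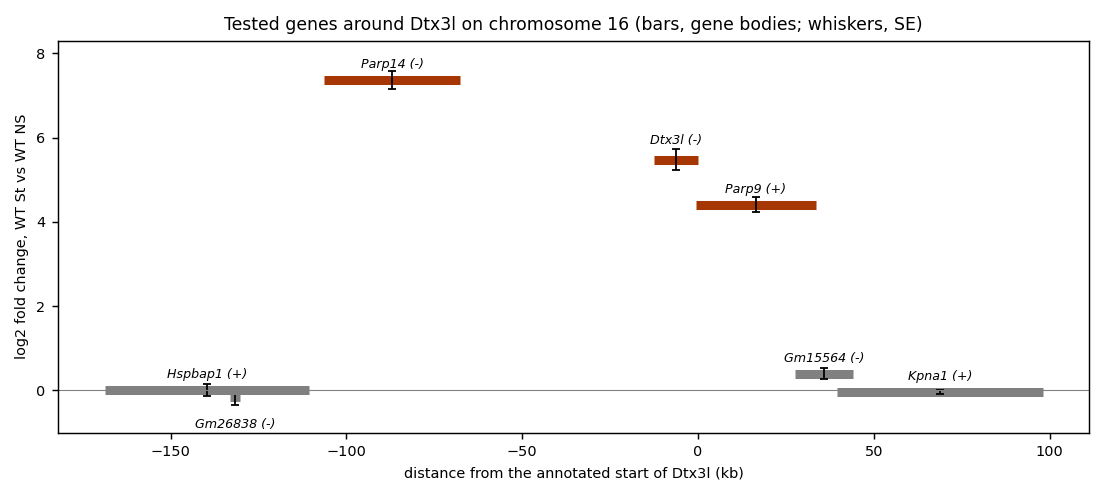
Log2 fold change of the tested genes around Dtx3l in WT OPCs (WT St vs WT NS) against their place in kb from the annotated start of Dtx3l. Bars span gene bodies, whiskers are SE and signs in brackets give the strand. Parp14 (7.37), Dtx3l (5.47) and Parp9 (4.41) stand above the uncalled genes on either side, which lie between -0.15 and 0.40.

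On either side of these 3 genes stood tested genes that were not called. Hspbap1, next to Parp14, had a log2 fold change of 0.01 in WT and 0.08 in TNFR2-/- OPCs, and Kpna1, an importin gene beyond Parp9, had -0.03 and 0.04. Around all members, 22 other genes within 50000 bases were tested, of which 3 were called in WT and 2 in TNFR2-/- OPCs. Rrp9, whose start overlaps that of Parp3 by 987 bases on the other strand, rose by 0.77 and 0.68 log2 units. Plec, which overlaps the end of Parp10 by 1401 bases on the same strand, rose by 0.91 and 0.92. Reads in these overlaps could not be assigned to 1 gene with certainty, and 2.41% of the 100-base sequences of Parp10 were shared with Plec and none of Parp3 with Rrp9. Kdm7a near Parp12 fell by 0.64 log2 units in WT, and its change in TNFR2-/- OPCs, -0.54, was under 1.5-fold.

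Parp10 and Parp12 are mono-ADP-ribosyltransferases elsewhere in the genome. Parp10 (chromosome 15, 76231174 to 76243441, minus strand), which has been linked to NF-κB signalling and to antiviral defence, was low, at 0.578, 0.398 and 0.401 FPKM in WT NS 2, 3 and 4 and 6.75, 5.81 and 6.19 FPKM in WT St 2, 3 and 4. In TNFR2-/- NS 2, 4 and 5 it had 0.71, 0.596 and 1.12 FPKM, and in TNFR2-/- St 2, 4 and 5 it had 8.63, 8.81 and 13.5 FPKM. It rested on 16 to 26 read pairs per WT NS library, and number 5 was again the highest. The rise was 2.82 ± 0.19 log2 units in WT (adjusted p = 2.43e-06) and 3.04 ± 0.19 in TNFR2-/- OPCs (adjusted p = 1.12e-06), and the ratios of mean FPKM were 13.6 and 12.7. Parp12 (chromosome 6, 39086410 to 39118349, minus strand), a zinc-finger protein that limits the replication of several viruses, had 8.05, 6.96 and 7.2 FPKM in WT NS 2, 3 and 4 and 31.9, 28.4 and 29.5 FPKM in WT St 2, 3 and 4. It had 9.91, 9.41 and 10 FPKM in TNFR2-/- NS 2, 4 and 5 and 40.8, 35.6 and 51.0 FPKM in TNFR2-/- St 2, 4 and 5. Its WT libraries varied little, and the change was 1.95 ± 0.12 in WT (adjusted p = 1.02e-06) and 2.05 ± 0.12 log2 units in TNFR2-/- OPCs (adjusted p = 5.91e-07).

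Parp11 and Parp8 rose less. Parp11 (chromosome 6, 127446840 to 127494261, plus strand), the gene with the overlapping GAS and ISRE letters, encodes an enzyme of the nuclear envelope that also acts on type I interferon signalling. It went from 13.5, 12.3 and 12.3 FPKM in WT NS 2, 3 and 4 to 35.1, 33.8 and 32.5 FPKM in WT St 2, 3 and 4, and from 13.2, 12.9 and 19.0 to 32.0, 33.3 and 50.4 FPKM in TNFR2-/- libraries 2, 4 and 5. Apart from number 5, the genotypes lay side by side. Its log2 fold changes were 1.38 ± 0.18 in WT (adjusted p = 0.000359) and 1.33 ± 0.18 in TNFR2-/- OPCs (adjusted p = 0.000351). Parp8 (chromosome 13, 116854820 to 117025537, minus strand) is a mono-ADP-ribosyltransferase whose role is little known. It had 34.1, 36.8 and 34.8 FPKM in WT NS and 63.4, 65.5 and 61.0 FPKM in WT St 2, 3 and 4. TNFR2-/- NS 2, 4 and 5 had 26.8, 31.9 and 23.8 FPKM and TNFR2-/- St 65.8, 73.8 and 63.8 FPKM. Parp8 was the one member whose TNFR2-/- NS libraries all lay below the WT NS libraries, and the one in which number 5 was not the highest of its group. It rose by 0.83 ± 0.10 log2 units in WT (adjusted p = 0.000184) and by 1.29 ± 0.10 in TNFR2-/- OPCs (adjusted p = 5.21e-06), and with a 2-fold threshold it was no longer called in WT.

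The PARPs activated by DNA breaks did not move together. Parp3 (chromosome 9, 106470322 to 106476949, minus strand), a mono-ADP-ribosyltransferase of double-strand break repair, had 36.9, 20.5 and 30.4 FPKM in WT NS and 215, 187 and 194 FPKM in WT St 2, 3 and 4. It had 48.6, 49.0 and 52.9 FPKM in TNFR2-/- NS and 270, 244 and 284 FPKM in TNFR2-/- St 2, 4 and 5. WT NS 3 was the lowest library, and the genotypes did not overlap with or without cytokines. Parp3 rose by 2.78 ± 0.17 log2 units in WT (adjusted p = 1.03e-06) and by 2.39 ± 0.17 in TNFR2-/- OPCs (adjusted p = 2.75e-06). Parp1 (chromosome 1, 180568924 to 180601254, plus strand), which makes most of the poly(ADP-ribose) of a cell, had 13.8, 12.9 and 13.7 FPKM in WT NS and 11.9, 12.5 and 13.8 FPKM in WT St 2, 3 and 4. It had 13.8, 13.9 and 15.9 FPKM in TNFR2-/- NS and 11.4, 11.8 and 15 FPKM in TNFR2-/- St 2, 4 and 5, so that NS and St libraries overlapped in both genotypes. Its log2 fold change was -0.08 (95% interval -0.32 to 0.16, adjusted p = 0.731) in WT and -0.19 (-0.43 to 0.05, adjusted p = 0.241) in TNFR2-/- OPCs. For Parp2 (chromosome 14, 50807841 to 50821301, plus strand), its nearest relative, WT libraries ranged from 7.05 to 8.64 FPKM in NS and from 6.96 to 8.5 FPKM in St, and TNFR2-/- libraries from 7.56 to 11.3 FPKM in NS and from 7.58 to 11.4 FPKM in St. Its log2 fold change was -0.02 in WT (-0.39 to 0.36, adjusted p = 0.973) and -0.03 in TNFR2-/- OPCs (-0.40 to 0.35, adjusted p = 0.933), and its sign turned with median-of-ratios scaling, to 0.04 and 0.08.

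**Figure D3:**
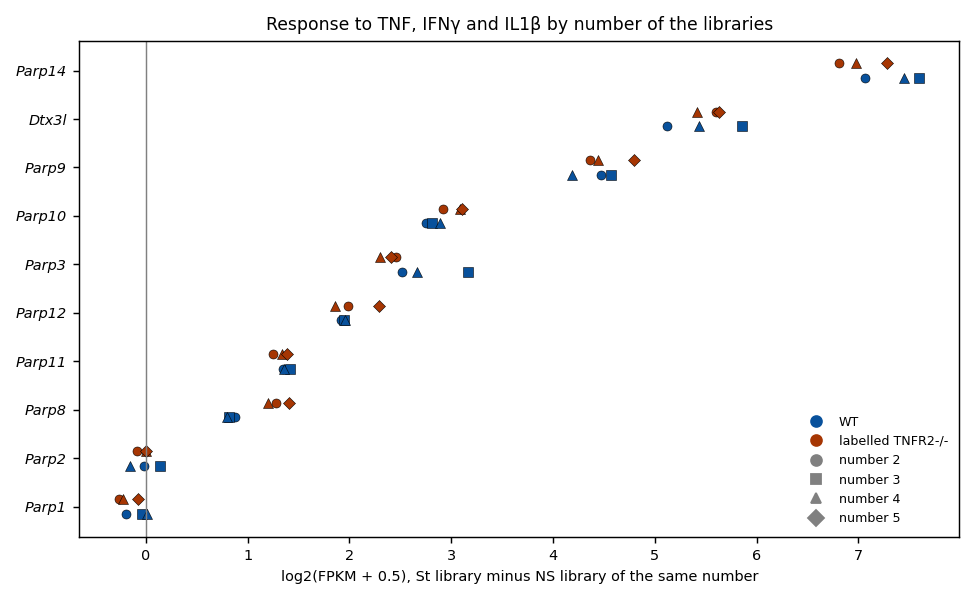
Difference in log2(FPKM + 0.5) between the St and the NS library of the same genotype and number, for each member. Each point is 1 pair of libraries, coloured by genotype and shaped by number. The pairs of a gene fall close together compared with the distance between genes, from 6.81 to 7.60 for Parp14 down to -0.26 to 0.01 for Parp1.

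NS and St libraries of the same genotype and number deviated together, and their differences varied little. Across the 6 pairs the difference ranged from 6.81 to 7.60 for Parp14, from 5.12 to 5.86 for Dtx3l, from 4.19 to 4.8 for Parp9 and from 2.75 to 3.11 for Parp10, on the log2 scale. Those of Parp3 went from 2.30 to 3.16, of Parp12 from 1.86 to 2.29, of Parp11 from 1.25 to 1.42 and of Parp8 from 0.80 to 1.41. All 8 genes rose in all 6 pairs, which follows from their NS libraries all lying below their St libraries. Number 5 of the libraries labelled TNFR2-/- had high levels of Parp14 and Dtx3l both with and without cytokines. Its response lay within the range of the other pairs for Parp14 (7.28), Dtx3l (5.63), Parp3 (2.41) and Parp11 (1.39). For Parp9, Parp10, Parp12 and Parp8 its response on this log2(FPKM + 0.5) scale was the largest of the 6 pairs, the upper end of each range given above. For Parp10, low in NS libraries, this rested on the 0.5 added. By the plain ratio of St to NS FPKM, its Parp10 response was below those of WT 3 and 4 and TNFR2-/- 2 and 4. Number 5 thus had the largest response on both scales for Parp9, Parp12 and Parp8, and not for Parp10.

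Levels of different genes were set side by side only as RPM per kb of annotated exons, since the length used in FPKM is not the annotated one. Without cytokines Parp1 was the highest member in both genotypes, at 32.4 ± 1.22 in the WT group and 35.1 ± 2.97 in the other (SD, n = 3). Parp8, Parp2, Parp3, Parp12 and Parp11 followed in WT NS, from 8.04 to 2.45, and Parp9 (0.742), Dtx3l (0.461), Parp10 (0.161) and Parp14 (0.1) came last. Libraries of neighbours in that order overlapped for Parp2, Parp3 and Parp12, for Parp9 and Dtx3l, and for Parp10 and Parp14, and were apart for the rest. In WT St Parp14 came second, at 26.9 ± 1.33, below Parp1 at 30.7 ± 2.28, and its libraries overlapped those of Parp3 (26.3 ± 1.89). Dtx3l followed at 24.2 ± 1.10, Parp9 at 17.6 ± 1.61, Parp8 at 14.4 ± 0.511 and Parp12 at 13.9 ± 0.814, with Parp11 (6.52), Parp2 (4.52) and Parp10 (2.19) at the end. In TNFR2-/- St Parp14 (46.2 ± 14.2), Dtx3l (43.3 ± 13.8), Parp3 (35.1 ± 2.69), Parp1 (30.8 ± 4.75) and Parp9 (29.8 ± 7.41) were the 5 highest, and each overlapped its neighbour. Per length of the longest annotated transcript instead, Parp8 moved from place 6 to place 2 in WT St and Parp14 from 2 to 3. Parp1 thus stayed near its level while Parp14, Dtx3l and Parp9 rose from among the lowest towards it. In WT St all their libraries stayed below those of Parp1. In TNFR2-/- St the means of Parp14 and Dtx3l lay above it.

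**Figure D4:**
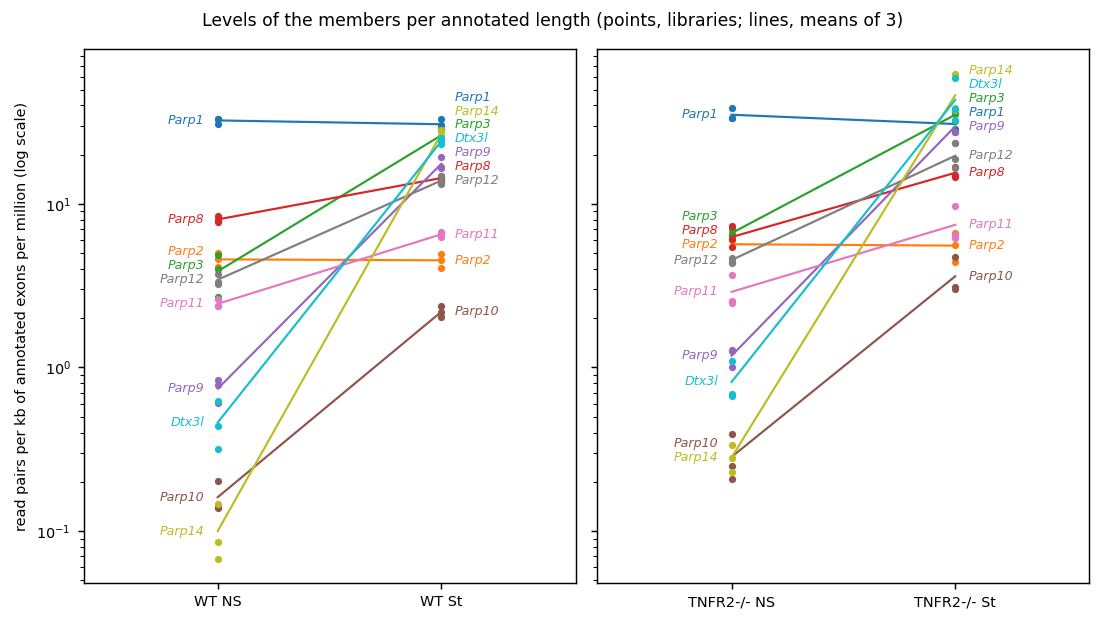
Levels of the members in RPM per kb of annotated exons, that is read pairs per kb per 1000000 of the library, on a log axis, without (NS) and with (St) cytokines, for WT on the left and the libraries labelled TNFR2-/- on the right. Points are libraries and lines join means of 3. Parp14 climbs from 0.1 to 26.9 in WT and from 0.282 to 46.2 in TNFR2-/- OPCs, while Parp1 and Parp2 run flat and Parp10 stays among the lowest.

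Between genotypes, 3 members were called higher in TNFR2-/- NS than in WT NS, where 1.62% of genes were. Parp14 differed by 1.09 ± 0.22 log2 units (adjusted p = 0.0194), Parp3 by 0.81 ± 0.17 (adjusted p = 0.0213) and Parp9 by 0.61 ± 0.17 (adjusted p = 0.0487). Dtx3l (0.71 ± 0.25, adjusted p = 0.0907), Parp10 (0.43 ± 0.19, adjusted p = 0.154) and Parp12 (0.38 ± 0.12, adjusted p = 0.0618) did not pass. In 7 members the 3 libraries labelled TNFR2-/- all lay above the 3 WT libraries, as in 19.9% of genes, and for Parp1 they did so by less than the digits given here show. Parp8 alone lay the other way, at -0.36 ± 0.10 (adjusted p = 0.0431), under 1.5-fold. With cytokines Parp9 was the 1 member called, at 0.74 ± 0.17 (adjusted p = 0.0413), where 1.18% of genes were called higher. Parp12 passed on p at 0.48 ± 0.12 (adjusted p = 0.0442) and was under 1.5-fold, and Dtx3l (0.79 ± 0.25, adjusted p = 0.0849), Parp14 (0.74 ± 0.22, adjusted p = 0.0687), Parp10 (0.65 ± 0.19, adjusted p = 0.0679) and Parp3 (0.42 ± 0.17, adjusted p = 0.148) did not pass. These 6 genes were those whose groups did not overlap in St, as in 15.4% of genes. For single genes, 3 libraries against 3 could give no exact permutation p below 0.1.

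**Figure D5:**
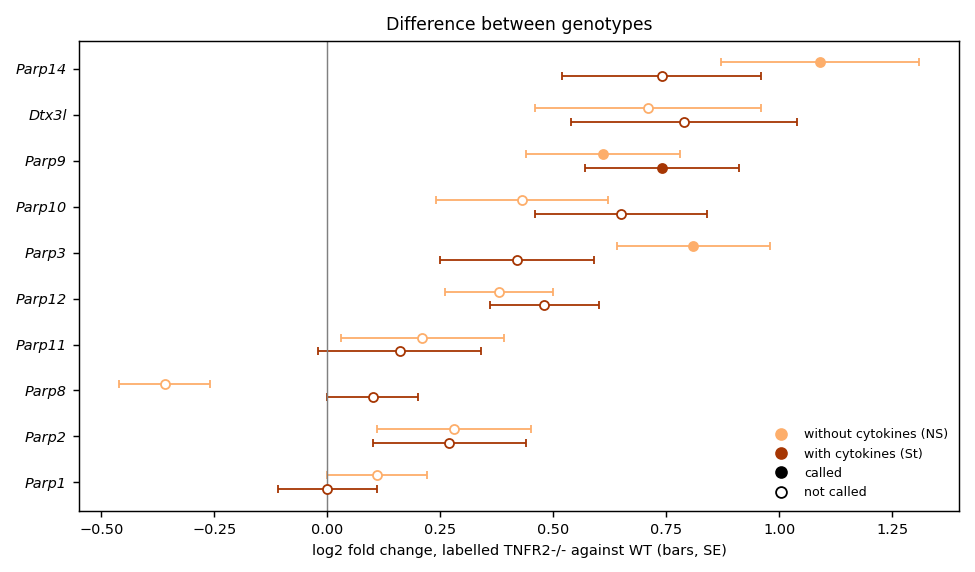
Log2 fold change between the libraries labelled TNFR2-/- and the WT libraries for each member, without (light) and with (dark) cytokines. Points are limma estimates from 3 libraries a group, filled where called, and bars are SE. Parp14, Parp3 and Parp9 are called in NS and Parp9 in St, and Parp8 in NS lies below 0 at -0.36.

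Whether members passed the test between genotypes depended on single libraries and also on settings. Parp9 in NS was lost with other scalings, Parp9 in NS and in St with no filter on low values, and Parp14 in NS with voom. Number 5 of the libraries labelled TNFR2-/-, which had the highest astrocyte markers, held the highest level of its group for 9 of 10 members in NS and in St, against 41.5% and 42.3% of all genes. Without both of its libraries, 1 member was called in NS by limma, Parp14 (0.97, adjusted p = 0.0335), and Parp3 was at 0.77 (adjusted p = 0.0639). In St 0 were called by limma, and Parp9 was at 0.55 (adjusted p = 0.0873). Calls higher over all genes went down in this fit too, from 293 to 141 in NS and from 214 to 96 in St. With all libraries, 6 members and 4820 of 18081 genes had an unadjusted p under 0.05 in St, and voom called 4 members and 282 of 18080 genes higher. No member was called in NS without any 1 of WT NS 3, WT NS 4, TNFR2-/- NS 2 or TNFR2-/- NS 5, or when the 6 NS libraries were fitted alone. Over all genes, calls higher in NS also went down in these fits, from 293 to 39, 38, 150, 56 and 7. With 1 library left out at a time the differences in NS ranged from 0.94 to 1.28 for Parp14, from 0.57 to 0.99 for Parp3 and from 0.49 to 0.72 for Parp9, and in St from 0.55 to 0.89 for Parp9. In St the count was 0 without any 1 of WT NS 2, WT NS 4, TNFR2-/- NS 2, TNFR2-/- St 2, TNFR2-/- St 5 or a WT St library. In that order, calls higher in St over all genes went from 214 to 170, 137, 171, 93 and 54. Without WT St 2, 3 and 4 they went to 128, 39 and 27. The count of members was 2 without TNFR2-/- NS 5 or TNFR2-/- St 4, where 277 and 264 of all genes were called higher. Astrocyte markers were also higher in numbers 2 and 4 of these libraries than in any WT library, and their part in the difference was not tested. Counts of members raised by stimulation stayed at 8 without number 5.

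The response itself was not called different between genotypes for any member, where 0.00553% of genes, 1 of 18081, were called in limma. Of the members, 1 had an unadjusted p under 0.05, as had 1437 of 18081 genes. This was Parp8, for which the TNFR2-/- response minus the WT response was 0.46 ± 0.14 log2 units (95% interval 0.15 to 0.77, adjusted p = 0.506). The 3 TNFR2-/- pairs rose by 1.28, 1.2 and 1.41 and the 3 WT pairs by 0.88, 0.82 and 0.80. For Parp3 the difference in response was -0.39 (-0.91 to 0.14, adjusted p = 0.744) and for Parp14 -0.35 (-1.02 to 0.33, adjusted p = 0.846). The 3 TNFR2-/- pairs of Parp3 rose by 2.46, 2.30 and 2.41, each less than the 3 WT pairs at 2.52, 3.16 and 2.66. For 3 pairs against 3, no exact permutation p could be below 0.1. The share of all genes with pairs separated as in Parp3 and Parp8 was not counted. With libraries of the same genotype and number as a block, the adjusted p was 0.0968 for Parp8, 0.235 for Parp3 and 0.304 for Parp14.

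Of 17 interferon receptor, JAK, STAT, IRF and SOCS genes, 14 were called higher with stimulation in each genotype and none lower. Over all genes tested, 4.58% were called higher in WT and 5.41% in TNFR2-/- OPCs. Irf1 rose by 7.28 log2 units in WT and 6.69 in TNFR2-/- OPCs, Stat2 by 3.63 and 3.51 and Irf9 by 2.98 and 2.72. Irf8 (8.15 and 7.83) and Socs1 (5.69 and 6.26), a feedback inhibitor of the JAKs, were also among those that rose. Of the receptor and its kinase, Ifngr2 rose by 1.18 and 1.08 and Jak2 by 1.38 and 1.67, and Ifngr1 was not called (-0.05 and -0.37). In St libraries, Stat2 differed between genotypes by -0.08 (-0.33 to 0.17) and Irf9 by 0.01 (-0.28 to 0.30). Irf8 differed by 0.25 (-0.05 to 0.56), Socs1 by 0.34 (-0.03 to 0.70) and Parp9 by 0.74 (0.35 to 1.12). The part of the regulators in the difference of Parp9 was not tested. Between genotypes, Irf1 was called in NS (0.66) and Irf7 in St (0.87), both higher in the libraries labelled TNFR2-/-.

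Few other genes of ADP-ribosylation were called with stimulation. Over all 18081 genes tested, 1361 were called in either direction in WT and 1824 in TNFR2-/- OPCs. Of the 7 other PARP family genes, 1 rose in both genotypes, Zc3hav1, the antiviral zinc-finger protein ZAP, from 1.14, 1.24 and 1.11 FPKM in WT NS to 3.88, 3.92 and 3.4 FPKM in WT St 2, 3 and 4 (1.35 ± 0.11 log2 units, adjusted p = 8.18e-06) and by 1.52 ± 0.11 in TNFR2-/- OPCs (adjusted p = 2.6e-06). None of the 7 fell. Between genotypes, Parp4, the PARP of vault particles, was called higher in the libraries labelled TNFR2-/- in NS (0.62) and St (0.66), and Tiparp, which represses the aryl hydrocarbon receptor, was called lower in NS (-0.59). Of 4 other Deltex ligases none rose and 2 fell with stimulation, Dtx1 by 0.83 log2 units in WT and by 1.26 in TNFR2-/- OPCs and Dtx4 by 0.75 and by 0.90. None of the 11 tested erasers, readers and cofactors of ADP-ribose and none of 8 partners in single-strand break repair was called in either genotype. Lists this short would hold few calls at the share over all genes. Among 14 tested genes of NAD+ synthesis and use, 2 rose in both genotypes: Nampt, which makes NAD+ from nicotinamide (1.40 and 1.6), and Nnmt, which methylates nicotinamide (1.18 and 1.16, with 5 to 10 read pairs in WT NS libraries). Nmrk1 was called lower in TNFR2-/- OPCs (-1.24) and not in WT (-0.48), and the difference itself was not called (-0.76, adjusted p = 0.578).

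By Pearson's r of log2(FPKM + 0.5) over the 12 libraries, among 13554 genes, Parp9 was most like Tapbp (0.9983), Gbp7 (0.9980) and Rnf213 (0.9980), and Dtx3l most like Ddx58 (0.9986), Psmb9 (0.9984) and Gbp7 (0.9984). Parp14 was most like Gbp3, Tapbp and Rtp4 (each 0.9978) and Parp12 most like Psmb9 (0.9981), Vwa5a (0.9979) and Rnf213 (0.9971). Their sizes of change differed: Tapbp, the tapasin of MHC-I peptide loading, rose by 2.48 log2 units in WT and the guanylate-binding protein gene Gbp7 by 4.73. All 12 libraries share the step from NS to St, which sets most of these values. Among the members, r was 0.86 or higher for every pair of the 8 that rose, and from -0.63 to 0.46 for pairs with Parp1.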

How the data were processed

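Per the labels and the study's methods, the authors used Trim Galore for trimming, STAR for alignment to GRCm38 and counting per gene, and edgeR for their own calls. They deposited FPKM in a table for NS and a table for St libraries, with 45792 entries each; 229 entries that share a symbol were left out. FPKM of all 17661 genes above 0 in every library were whole reads (100% within 0.02 reads) once the library total and a divisor per gene were known, which gave read pairs and totals.

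A model of the 4 groups was fitted to log2(FPKM + 0.5) of all 12 libraries in limma (version 3.58.1, R version 4.3.3) with a trended prior, for genes averaging 0.1 FPKM or more; it was checked on simulated data. Within genotypes, same-numbered NS and St libraries deviated together (r 0.34 to 0.65 in 6 pairs, against -0.45 to 0.09 in 12 others); the block within genotype changed no member's call. Across genotypes the numbers gave -0.06 to 0.20.

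The members and gene lists were chosen with earlier results of these data known. Named were all members, up to 4 called genes per list and direction, set regulators, neighbours and, for 4 members, the 3 genes of highest r; 1 regulator is not reported here. Positions and lengths came from GENCODE on GRCm38. Descriptions ran in Python 3.11.15. Alternatives were other pseudocounts, filters, scalings, fits, thresholds, voom, blocks and leaving out each library.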

Additional observations from a re-analysis of the deposited data

How the results depend on the processing

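The 8 calls higher with stimulation in each genotype and the 0 calls on the difference in response stayed within 1.5 times under every alternative run. The 3 members called between genotypes in NS became 0 with the 6 libraries compared fitted alone and 1 with a 2-fold threshold. They became 1 with voom on recovered reads and 0 to 3 when 1 library was left out. Without both libraries numbered 5, an alternative chosen after seeing the data, 1 was called, and calls higher over all genes went from 293 to 141. Parp9 alone was lost, leaving 2, with a pseudocount of 1, no filter on low values, median-of-ratios scaling, quantile normalization or no trend. Over all alternatives its call in NS was lost in 19 of 26. The 1 member called between genotypes in St became 0 with no filter on low values, 0 with 6 libraries, 0 without the trend, 0 with a 2-fold threshold, 0 without number 5, 3 with array weights, 2 with no fold threshold, 4 with voom and 0 to 2 when 1 library was left out. With the number of the libraries as a replicate block across genotypes, where the numbers did not pair the samples, the counts were 2 in NS and 0 in St, Parp9 being lost in both, and 8 in each stimulation comparison. The causes were not tested, except that the 6-library fits and those without a library rest on fewer samples.

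Directions turned for values near 0 that were not called. Parp2 in WT St vs WT NS was 0.04 with median-of-ratios scaling and -0.09 to 0.05 when 1 library was left out, with 0.05 without WT NS 2 and without WT St 4. In TNFR2-/- OPCs it was 0.08 with that scaling, 0.02 with quantile normalization, and -0.19 to 0.12 when 1 library was left out, with 0.02 without NS 2, 0.09 without NS 5 and 0.12 without St 4. Parp11 in TNFR2-/- St vs WT St was -0.04 with the replicate block and -0.05 without both libraries numbered 5, and -0.05 to 0.28 when 1 library was left out, with -0.05 without St 5. By the longest transcript, Parp14 ranked 3 in WT St. Parp14 and Parp10 were limited by 16 to 41 read pairs in WT NS libraries.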
